A study of Mus musculus with 12 samples.

Results

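Expression of 10 genes of wound and lipid-handling macrophages was described in mouse skin: Trem2, Gpnmb, Cd68, Msr1, Ms4a7, Fcgr1, Cd14, Aif1, Lyz2 and Apoe. They were taken by gene name from the non-control probes of 12 microarrays, which gave 12 probes of 39429 distinct probes and 10 genes of 20469 tested. Cd68 and Msr1 had 2 probes each and every other gene had 1. Several of the 10 were chosen by their log2 fold changes in these same arrays, for being higher in incised skin or after an oligonucleotide. Their values in the comparisons below are therefore a description, without a test.

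Total skin RNA came from C57BL/6 males aged about 8 weeks, in 4 groups of 3, which the labels call biological replicates. Incised mimic skin carried a sutured incision of 1 cm and received 100 nmol of a miR-29b mimic, an RNA that adds miR-29b activity, 72 h after wounding. Incised PBS skin carried the same incision and received vehicle at the same time. Intact antimiR skin was not wounded and received 100 nmol of antimiR-29, an oligonucleotide that blocks miR-29. Intact PBS skin was not wounded and received vehicle. Every site was injected into the dermis and taken 24 h later. Both oligonucleotide groups were set against vehicle and not against a control oligonucleotide, so the presence of an oligonucleotide and its miR-29 sequence cannot be told apart here. The mimic and the antimiR were given in different skin, so their effects also differ in the wound.

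Skin holds resident macrophages, and an incision draws in blood monocytes that become wound macrophages. These cells clear dead cells and debris, store and export the lipid they take up, and degrade the rest in lysosomes. TREM2 is a surface receptor for lipids and lipoproteins that signals through the adaptor TYROBP, and the genes around it are known from lipid-laden macrophages of several tissues. In whole skin, fewer cells of a type and less RNA per cell cannot be told apart, and several of the 10 genes are not limited to macrophages. GPNMB is also a melanocyte protein, and APOE is made by many skin cells.

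miR-29 pairs with its targets through the seed, bases 2 to 8 of the mature miRNA, which stands in capitals. Whether the oligonucleotides acted through the seed in this skin was not tested. The 3 family members are shown because they share it.
miR-29a-3p: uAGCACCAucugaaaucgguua
miR-29b-3p: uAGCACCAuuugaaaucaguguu
miR-29c-3p: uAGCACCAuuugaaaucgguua
They are RefSeq sequences on the GRCm38.p6 build, with miR-29a on chromosome 6 at 31062673 to 31062694 on the minus strand and miR-29c on chromosome 1 at 195037600 to 195037621 on the plus strand. miR-29b-3p has a copy beside each. The seed's match TGGTGCT was in 0 of the 12 member probes and in 0.543% of all 39429 probes, which says only that these letters are not in those 60-base windows.

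What each probe reads bears on the values, so stretches of 4 probes are shown. Positions are those of the scanner files, on mm9. The stretches from Trem2 (bases 28 to 57 of the probe), Ms4a7 and Fcgr1 (bases 31 to 60) hold a polyadenylation signal, AATAAA or ATTAAA, which is in capitals. Fcgr1 holds both forms, of which 1 is in capitals.
Trem2: tgcactttggacATTAAAcattctccacac
Ms4a7: tcagctttggtagatcctAATAAAcatctg
Fcgr1: tatgaacaagaacaattaaaaAATAAAtta
Lyz2: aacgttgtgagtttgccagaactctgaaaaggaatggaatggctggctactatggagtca
The signal was in 3 of 12 member probes and in 16.7% of all probes. The Lyz2 probe, shown whole, starts at base 94 of its transcript, whereas the Fcgr1 probe starts at base 2522. Lyz2 has a near-identical paralog, Lyz1, so part of the Lyz2 signal may come from Lyz1.

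All 12 member probes were well above background on all 12 arrays, and 0 were saturated. Across arrays, 65.6 to 73.8% of probes were well above background in Cy5, the dye of the skin RNA, and its signal was 3.67 to 5.00 times the background. Intact PBS array 3 stood apart, with a median correlation of 0.921 to the rest of its group. The keratinocyte genes Krt5 and Krt14, which mark epidermis, were well above background on every array. By the slide barcodes in the scanner files' names, which the labels do not repeat, the arrays lay on 3 slides of 4. Mimic array 1 shared slide 1 with all incised PBS arrays, and the antimiR arrays shared slide 3 with intact PBS array 3. The remaining mimic and intact PBS arrays were on slide 2.

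Values below are log2 ratios of skin over a shared mouse reference RNA, so 1 unit is a doubling and a negative value means less than in the reference. A ratio of 1 gene cannot be set against that of another as a level. Trem2, the lipid receptor (chromosome 17, 48491537 to 48491596), had log2 ratios of 1.59, 1.96 and 1.48 in incised mimic skin and 1.06, 1.28 and 1.13 in incised PBS skin. In intact antimiR skin it had -0.07, -0.44 and 0.01, against -1.91, -1.42 and -1.57 in intact PBS skin. Trem2 thus lay in the order incised mimic, incised PBS, intact antimiR, intact PBS, with no overlap between any neighbours. The log2 fold change was 1.47 ± 0.17 for antimiR over PBS, 0.52 ± 0.17 for mimic over PBS and 2.79 ± 0.17 for incised over intact PBS skin. Each error after a log2 fold change is a standard error of the limma fit with 3 arrays a group.

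Msr1 encodes the class A scavenger receptor, which takes up modified lipoproteins. Its brighter probe (chromosome 8, 40689158 to 40689217) had log2 ratios of 2.29, 2.13 and 2.25 in incised mimic skin, against 0.95, 0.94 and 0.62 in incised PBS skin. Intact antimiR skin gave 0.13, 1.02 and 0.53, and intact PBS skin gave -0.09, 0.16 and -0.66. The mimic arrays were above all others, antimiR array 1 lay below intact PBS array 2, and the incised PBS and antimiR arrays overlapped. The log2 fold change was 1.39 ± 0.24 for mimic, 0.75 ± 0.24 for antimiR and 1.03 ± 0.24 for the incision. The other Msr1 probe (40709296 to 40709355) lies further upstream in the transcript, at base 624 instead of base 3231.
Msr1: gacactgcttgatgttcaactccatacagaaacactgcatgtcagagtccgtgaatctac
It is shown because the probes differed most with antimiR, where this one gave a log2 fold change of 0.15, against 0.96 with mimic and 1.05 for the incision. In intact antimiR skin it had -0.72, 0.04 and -0.45, overlapping the -0.68, -0.08 and -0.83 of intact PBS skin.

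Fcgr1 encodes the high-affinity receptor for IgG, and in mouse skin CD64, its protein, marks macrophages and monocyte-derived cells. The probe (chromosome 3, 96086839 to 96086898) had log2 ratios of 4.16, 4.15 and 3.94 in incised mimic skin and 3.51, 3.23 and 3.21 in incised PBS skin. Intact antimiR skin gave 3.16, 4.13 and 3.75, against 1.28, 1.78 and 0.51 in intact PBS skin. Every antimiR array was above every intact PBS array, and the antimiR arrays reached into the range of both incised groups. Among the 10 genes, Fcgr1 had the highest log2 fold change with antimiR, at 2.49 ± 0.30. It was 0.77 ± 0.30 with mimic, where the groups did not overlap, and 2.13 ± 0.30 for the incision. The mimic effect minus the antimiR effect was -1.72 ± 0.42.

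Cd14 encodes the co-receptor that passes lipopolysaccharide to Toll-like receptor 4. It had log2 ratios of -1.26, -0.94 and -0.77 in incised mimic skin, -0.79, -1.52 and -1.06 in incised PBS skin, -0.67, -1.47 and -2.78 in intact antimiR skin, and -2.09, -1.75 and -1.89 in intact PBS skin (probe on chromosome 18, 36884969 to 36885028). The antimiR arrays spanned both the highest and the lowest value of all 12. The log2 fold change was 0.27 ± 0.41 with antimiR, 0.13 ± 0.41 with mimic and 0.79 ± 0.41 for the incision. Only the comparison of incised with intact PBS skin had no overlap.

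Gpnmb encodes a glycoprotein of lysosomes and melanosomes that appears on lipid-laden macrophages (chromosome 6, 49006386 to 49006445). Its log2 ratios were -0.31, -0.69 and -0.94 in incised mimic skin, -1.01, -1.49 and -0.96 in incised PBS skin, -0.46, -0.61 and 0.31 in intact antimiR skin, and -2.23, -1.60 and -1.15 in intact PBS skin. Here the intact antimiR group was highest on average, at -0.25 ± 0.50 (SD, n = 3), and incised and intact PBS skin overlapped. Mimic array 3 at -0.94 lay just above incised PBS array 3 at -0.96, the closest point of those groups. The log2 fold change was 1.41 ± 0.30 with antimiR, 0.51 ± 0.30 with mimic and 0.51 ± 0.30 for the incision. Beside it, the melanocyte markers Mlana and Dct, a melanosome antigen and a pigment enzyme, were 1.36 ± 0.27 and 1.32 ± 0.37 higher with antimiR on the log2 scale (limma adjusted p = 0.011 and 0.0496). Of 7 measured melanocyte markers, 2 passed and all 7 were positive, while 5.24% of all genes were called higher with antimiR. The list score ran from 0.23 to 0.76 on antimiR arrays and from -0.32 to -0.06 on intact PBS arrays. The score is the median over a list of log2 ratios centred on each gene's mean over the arrays. The part of melanocytes in the Gpnmb values was not tested.

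Cd68 encodes a glycoprotein of late endosomes and lysosomes that is used as a general macrophage stain. The brighter probe (chromosome 11, 69477775 to 69477834) had log2 ratios of 1.53, 1.41 and 1.33 in incised mimic skin and 0.68, 0.44 and 0.58 in incised PBS skin. Intact antimiR skin gave 1.22, 0.91 and 0.64, against -0.29, 0.04 and -0.75 in intact PBS skin. No array of either oligonucleotide group overlapped its PBS group. As a log2 fold change this was 1.26 ± 0.19 with antimiR, 0.86 ± 0.19 with mimic and 0.90 ± 0.19 for the incision. The second probe (69478979 to 69479038), which lies upstream at base 443 of its transcript instead of base 1110, gave 0.82, 0.59 and 0.70 in the same order. With Cy5 alone, without the reference dye, the brighter probe's log2 fold change was 2.66 with antimiR and 2.29 for the incision, and neither passed (limma adjusted p = 0.14 and 0.16). For this probe intact PBS array 1 had a Cy5 signal of 192, whereas arrays 2 and 3 of that group had 6318 and 2982. For both Cd68 and Msr1 the upstream probe thus had the smaller log2 fold change with antimiR and with mimic.

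Ms4a7 encodes a tetraspanning membrane protein found mainly in macrophages (chromosome 19, 11395903 to 11395962). It had log2 ratios of 4.39, 4.36 and 3.82 in incised mimic skin and 4.40, 4.01 and 4.37 in incised PBS skin. Intact antimiR skin gave 3.81, 2.48 and 2.41, against 1.58, 2.01 and 0.98 in intact PBS skin. Mimic and PBS overlapped in incised skin, whereas antimiR lay between the incised groups and intact PBS skin without overlap. On the log2 scale the fold change was 1.37 ± 0.36 with antimiR, -0.07 ± 0.36 with mimic and 2.73 ± 0.36 for the incision. AntimiR array 1 stood above the other antimiR arrays, and without it the antimiR value was 0.92. The antimiR call ended in 4 of the 6 fits that left out 1 array.

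Aif1 encodes the actin-binding protein IBA1 of macrophages and microglia (chromosome 17, 35307959 to 35308018). The log2 ratios were 3.53, 3.80 and 3.60 in incised mimic skin, 3.69, 3.45 and 3.59 in incised PBS skin, 3.22, 3.02 and 2.95 in intact antimiR skin, and 1.90, 2.34 and 0.76 in intact PBS skin. The incised groups overlapped, and the groups of intact skin did not. As a log2 fold change this was 1.40 ± 0.30 with antimiR, 0.07 ± 0.30 with mimic and 1.91 ± 0.30 for the incision. The low value on intact PBS array 3 weighed on this: without that array the antimiR value was 0.94 and the incision value 1.46. With Cy5 alone, without the reference dye, the Aif1 values were 1.96 with antimiR and 0.68 with mimic, the latter without a call. Its Cy5 signal was 15806, 14661 and 14920 on mimic arrays, against 8842, 10006 and 7591 on incised PBS arrays.

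Lyz2 and Apoe encode secreted products, the M-type lysozyme of myeloid cells and the main apolipoprotein of lipid export. The Lyz2 log2 ratios were 3.14, 3.22 and 3.35 in incised mimic skin, 3.13, 2.88 and 3.16 in incised PBS skin, 2.87, 2.13 and 2.14 in intact antimiR skin, and 2.54, 2.95 and 2.09 in intact PBS skin (chromosome 10, 116719175 to 116719234). All neighbouring groups overlapped. On the log2 scale the fold change was -0.15 ± 0.23 with antimiR, 0.18 ± 0.23 with mimic and 0.53 ± 0.23 for the incision. Its paralog Lyz1 gave 0.07, 0.40 and 0.45 in the same order, each with a standard error of 0.29. With Cy5 alone the Lyz2 value with mimic was 0.64, without a call.

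The Apoe probe was printed at 10 spots on each array (chromosome 7, 20281732 to 20281791).
Apoe: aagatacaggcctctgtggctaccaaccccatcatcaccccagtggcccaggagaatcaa
It is shown because this gene had the lowest log2 fold change of the 10 with both oligonucleotides. Apoe had log2 ratios of 5.20, 5.19 and 5.12 in incised mimic skin, 5.49, 5.47 and 5.48 in incised PBS skin, 5.18, 4.95 and 4.66 in intact antimiR skin, and 5.17, 5.03 and 5.45 in intact PBS skin. The 3 mimic arrays lay below the 3 incised PBS arrays, and the antimiR and intact PBS arrays overlapped. As a log2 fold change this was -0.31 ± 0.13 with mimic, -0.29 ± 0.13 with antimiR and 0.26 ± 0.13 for the incision, and none passed the threshold. With scaling between arrays the mimic value was -0.12, and with Cy5 alone the antimiR value was -0.02.

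**Figure D1:**
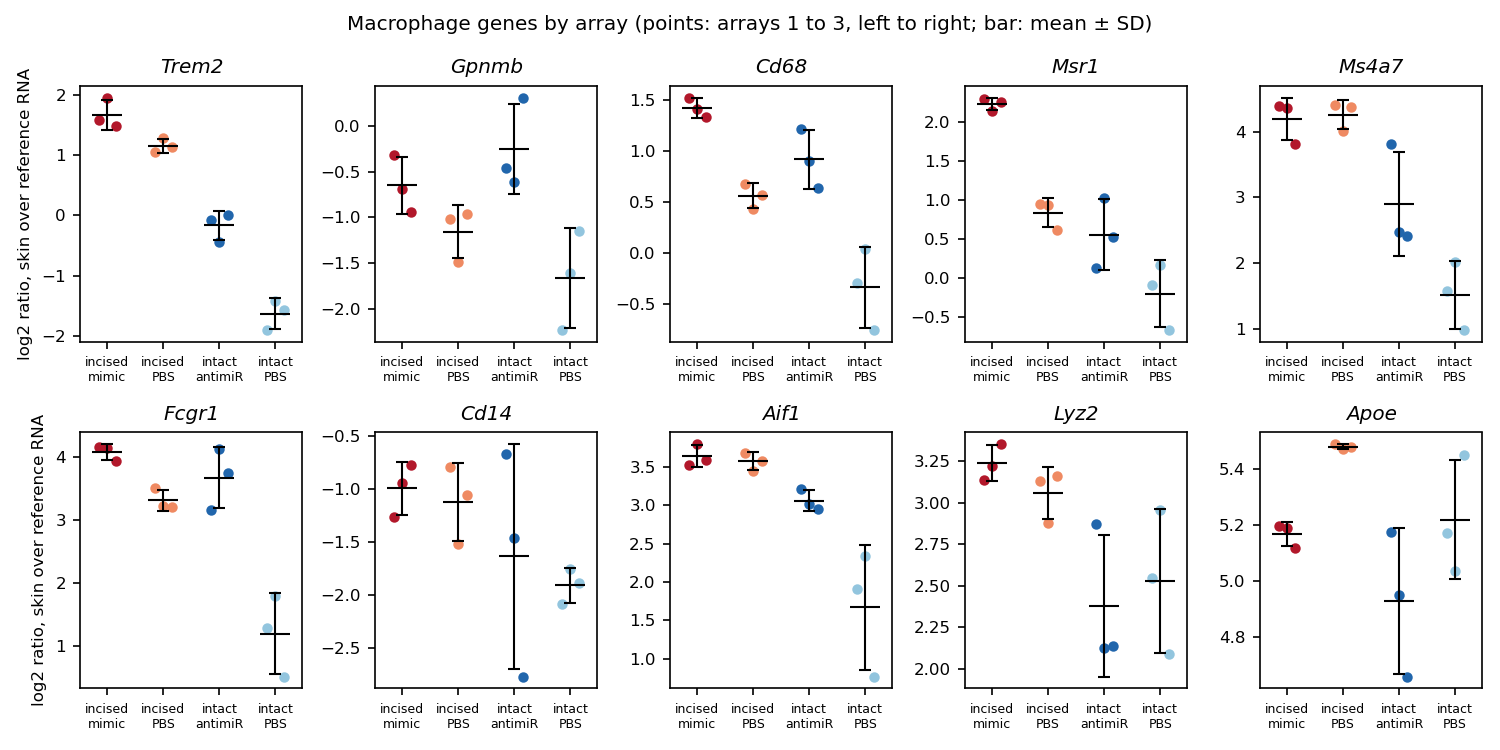
Log2 ratio of skin over reference RNA (vertical axis, a scale per panel) for each of the 10 genes on every array, with bars for the mean ± SD of 3 arrays. Trem2 steps down from incised mimic to intact PBS without overlap, Fcgr1 and Gpnmb in antimiR skin overlap the mimic group, and Apoe spans less than 1 unit.

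With antimiR, 8 of the 10 genes had positive values and 6 passed the limma threshold, an adjusted p under 0.05 over all genes: Trem2, Gpnmb, Cd68, Ms4a7, Fcgr1 and Aif1. Over all genes 5.24% were called higher, 4.47% lower and 9.71% either way. The same 6 genes had groups that did not overlap, with the antimiR arrays higher, as did 14.1% of all genes, and 25.8% did not overlap in either direction. The median log2 fold change of the 10 was 1.32, against 0.01 over all genes. With mimic, 8 were positive and Msr1 alone passed, while 0.205% of all genes were called higher and 0.591% either way. Trem2, Gpnmb, Cd68, Msr1 and Fcgr1 were higher on every mimic array than on any incised PBS array, as were 12.5% of all genes, and Apoe was lower, as were 11.7%. The median was 0.34, against 0.00 over all genes.

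For the incision under PBS, all 10 were positive and 6 passed: Trem2, Cd68, Msr1, Ms4a7, Fcgr1 and Aif1. Over all genes 9.86% were called higher, 5.55% lower and 15.4% either way. The groups did not overlap for 8 of the 10, all but Gpnmb and Lyz2, and they were higher without overlap for 19.8% of all genes, and without overlap either way for 35.2%. The median was 0.97, against 0.00 over all genes. These counts follow from how the genes were picked, and nothing is read from them. Intact PBS skin serves as the control both for antimiR and for the incision, and incised PBS skin enters both the mimic and the incision values. In the difference between the mimic and antimiR effects 0 of the 10 passed, with 1.09% of all genes called. The lowest values beside that of Fcgr1 were -1.44 ± 0.51 for Ms4a7, -1.33 ± 0.43 for Aif1 and -0.95 ± 0.24 for Trem2, while Msr1 was at 0.63 ± 0.33.

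**Figure D2:**
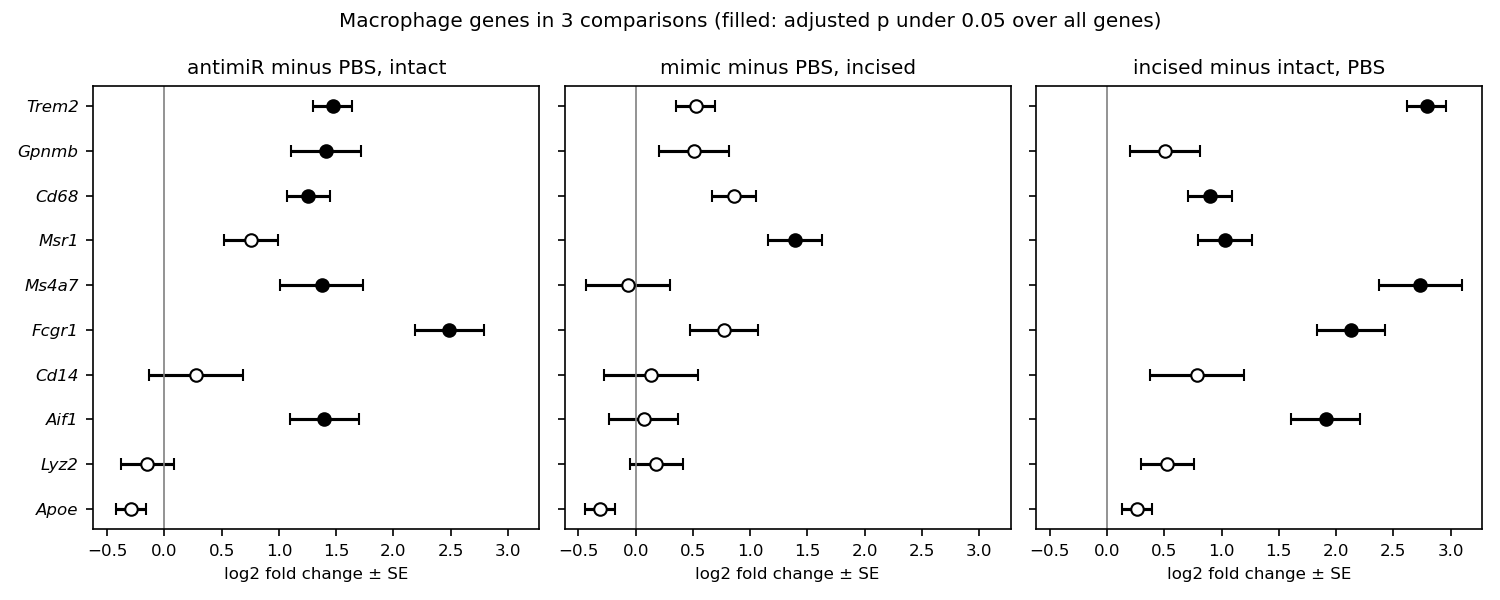
Log2 fold change ± SE of the 10 genes (horizontal axis) for antimiR over PBS, mimic over PBS and incised over intact PBS skin, with filled points where the adjusted p over all genes was under 0.05. Filled points number 6, 1 and 6, and Msr1 is the filled point with mimic.

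Slides and single arrays bear on these values. Within slide 3, where 3 antimiR arrays stood beside intact PBS array 3, the antimiR values were 1.41 for Trem2, 3.17 for Fcgr1, 2.30 for Aif1, 1.91 for Ms4a7, 1.68 for Cd68, 1.22 for Msr1 and 0.90 for Gpnmb. Lyz2 was then at 0.29, with its sign turned, and Apoe at -0.52. A fit with slide as a fixed block gave the same values, since no other slide held both groups. Every antimiR value from these fits, lists included, thus sets the antimiR arrays against intact PBS array 3 alone. The score of the 10 genes was -1.46 on that array, against -1.01 and -0.66 on intact PBS arrays 1 and 2. No larger rise is read from these fits. In the fixed-block fit Gpnmb lost its antimiR call and Msr1 gained one. Within slide 3 alone Gpnmb and Ms4a7 lost theirs, but intact PBS was then 1 array, assumed to vary like the antimiR arrays. Within slide 1, where mimic array 1 stood beside 3 incised PBS arrays, the mimic values were 1.45 for Msr1, 0.96 for Cd68, 0.85 for Fcgr1 and 0.44 for Trem2. There 0 genes in all were called by limma (1724 at an unadjusted p under 0.05), with mimic as the lone array. No slide held both PBS groups. With slide as a fixed block the incision values were 2.95 for Trem2, 2.16 for Ms4a7, 1.67 for Fcgr1, 0.70 for Msr1 and 0.53 for Cd68, and Trem2 alone of the 10 passed. The Msr1 call with mimic ended in each of the 6 fits that left out 1 array, where its value ran from 1.28 to 1.44.

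The promoters of Trem2 and Fcgr1 are shown because these were the genes of the set with the highest log2 fold change for the incision and for antimiR. Each is the 250 bases before the start site, from RefSeq on GRCm38.p6, and capitals mark matches to GAGGAA, the core read by the myeloid factor PU.1, on either strand (TTCCTC on the strand shown). In Fcgr1 the earlier run of capitals marks a gamma-activated site, TTCNNNGAA, the motif of STAT factors.
Trem2, chr17:48346151-48346400, plus strand: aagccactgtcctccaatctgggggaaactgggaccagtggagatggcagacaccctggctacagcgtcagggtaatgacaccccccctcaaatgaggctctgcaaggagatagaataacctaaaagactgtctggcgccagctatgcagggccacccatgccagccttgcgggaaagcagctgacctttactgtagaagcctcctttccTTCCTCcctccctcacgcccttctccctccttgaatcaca
Fcgr1, chr3:96293970-96294219, minus strand: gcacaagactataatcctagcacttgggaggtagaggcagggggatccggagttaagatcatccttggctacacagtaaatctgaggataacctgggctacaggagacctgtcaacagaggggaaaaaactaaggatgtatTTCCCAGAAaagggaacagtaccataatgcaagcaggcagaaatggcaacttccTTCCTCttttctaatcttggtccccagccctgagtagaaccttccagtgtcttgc
Both windows thus hold the core, as do 23.3% of 32851 promoter windows of the same length, and the gamma-activated site is in 7.02% of them. Trem2 also has 1 match to the AP-1 motif TGANTCA, in lower case, which is in 6.75%. A match describes letters, not binding.

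Genes of the pathway around TREM2 came from lists of general knowledge. All 15 lists were chosen with earlier results of these data known, so their counts are a description without a test. Beside every list count below, 9.86% of all genes were called higher and 5.55% lower for the incision. With antimiR 5.24% were called higher and 4.47% lower, and with mimic 0.205% and 0.386%. The incision calls of all 15 lists ended with slide as a fixed block, apart from that of the chemokine receptor gene Cx3cr1 among the macrophage markers, a gene named after its values were seen. The medians for the incision in that fit were 0.88 for the TREM2 list, 0.94 for the Fc receptor partners, 0.57 for lysosomal genes and 0.79 for interferon response genes, and 11 genes of the whole array were called. Of 12 genes of its adaptors and signalling, 9 rose in incised over intact PBS skin and 0 fell, with a median of 1.00. They included the exchange factor Vav1 at 1.92 ± 0.19 (limma adjusted p = 0.00042), the phosphatase gene Inpp5d at 1.33 ± 0.16 (0.0011) and the adaptor gene Hcst at 0.99 ± 0.13 (0.0014). Tyrobp, the TREM2 adaptor itself, named after its values were seen, rose by 1.14 ± 0.23 (0.010). It did not pass with antimiR, at 0.73 ± 0.23 (0.076) with overlapping groups, or with mimic, at 0.63 ± 0.23 (0.29). With antimiR 5 rose and 1 fell, with a median of 0.68. Among the 5, Treml2, named after its values were seen, was well above background on 2 antimiR arrays and 0 intact PBS arrays. It lost its call with slide as a fixed or a random block. Lat2, an adaptor of activating receptors, rose by 1.43 ± 0.21 (0.0021) and Vav1 by 1.31 ± 0.19 (0.0024), while the TREM-like gene Treml4 fell by 0.77 ± 0.10 (0.0010). With mimic 0 of 12 passed and 11 were positive, with a median of 0.52. Lat2 was at 0.76 ± 0.21 (0.14).

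Among 8 Fc receptor partners of Fcgr1, 7 rose for the incision, 3 rose with antimiR and 0 passed with mimic, with medians of 1.21, 0.75 and 0.40. Fcgr4, another activating IgG receptor of mouse myeloid cells, rose by 2.28 ± 0.34 with antimiR (adjusted p = 0.0025) and by 2.16 ± 0.34 for the incision (0.0032). With antimiR its log2 ratios were 1.94, 2.21 and 1.96, against -0.38, 0.55 and -0.90 in intact PBS skin. Fcer1g, the signalling chain these receptors share, rose by 1.42 ± 0.25 with antimiR (0.0058). Fcgr3, named after its values were seen, went the other way with antimiR, at -0.84 ± 0.24 (0.052), and did not pass. Its log2 ratios were 1.84, 0.93 and 1.09, all below the 1.95, 2.55 and 1.89 of intact PBS skin. Fcgr2b at 0.25 ± 0.24 and Btk at 0.11 ± 0.18 did not pass with antimiR either. The CD14 and Toll-like receptor 4 list moved both ways. Of 11 measured genes, 1 rose and 1 fell with antimiR, the adaptor genes Ticam1 at 0.43 ± 0.12 (0.048) and Tirap at -0.50 ± 0.11 (0.017), and 2 rose and 1 fell for the incision, Tirap then at 0.49 ± 0.11 (0.013). With slide as a fixed block 3 of the 11 rose with antimiR and 0 fell, and Ticam1 and Tirap did not pass.

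Among 13 other scavenger receptors, Scara5, a ferritin receptor of mesenchymal cells, fell in all 3 comparisons. It was at -1.26 ± 0.16 with mimic (adjusted p = 0.010), -0.97 ± 0.16 with antimiR (0.0039) and -0.77 ± 0.16 for the incision (0.010). Its log2 ratios were 0.39, 0.58 and 0.46 in incised mimic skin, against 1.98, 1.51 and 1.72 in incised PBS skin, with no overlap. The beta-glucan receptor gene Clec7a rose by 1.59 ± 0.19 with antimiR (0.00082) and by 1.60 ± 0.19 for the incision (0.00095), and was at 0.69 ± 0.19 with mimic (0.15). In all 1 of 13 rose and 1 fell with antimiR, 0 rose and 1 fell with mimic, and 3 rose and 1 fell for the incision. Over all genes 5.24% were called higher and 4.47% lower with antimiR, 0.205% and 0.386% with mimic, and 9.86% and 5.55% for the incision.

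Of 23 genes of lipid uptake, storage and efflux, 7 rose and 2 fell for the incision, 3 rose with antimiR and 0 passed with mimic. The medians were 0.31, 0.08 and 0.11. Over all genes 9.86% were called higher for the incision and 5.24% with antimiR. Abcg1, a cholesterol exporter of macrophages, rose by 1.23 ± 0.11 for the incision (adjusted p = 0.00028) and by 0.74 ± 0.11 with antimiR (0.0025). Its log2 ratios were 1.06, 1.19 and 1.20 in intact antimiR skin, against 0.29, 0.36 and 0.59 in intact PBS skin. The lysosomal lipase gene Lipa rose by 1.34 ± 0.25 for the incision (0.0065), and the apolipoprotein gene Apoc4, which lies near Apoe in the genome, fell by 1.62 ± 0.30 (0.0068). With antimiR the lipoprotein receptor gene Lrp1 rose by 0.62 ± 0.11 (0.0051) and the cholesterol ester hydrolase gene Nceh1 by 0.80 ± 0.16 (0.011).

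Of 19 genes of lysosomes and of the MiT transcription factors that drive them, 15 rose for the incision, 9 with antimiR and 1 with mimic, and 0 fell in any. The medians were 0.71, 0.47 and 0.31. The cathepsin genes Ctsb and Ctss rose by 1.23 ± 0.13 and 2.13 ± 0.29 for the incision (adjusted p = 0.00054 and 0.0017), and Grn, encoding progranulin, by 1.17 ± 0.16 (0.0016). With antimiR Grn rose by 0.95 ± 0.16 (0.0043) and Ctss by 1.41 ± 0.29 (0.014), and with slide as a fixed block 4 of the 19 passed, these among them. The gene that rose with mimic was Tfec, the MiT factor of macrophages, at 0.66 ± 0.12 (0.039). Its log2 ratio averaged 1.23 ± 0.13 in incised mimic skin and 0.57 ± 0.19 in incised PBS skin (SD, n = 3 each). Of 11 other MS4A genes, 4 rose for the incision, 2 with antimiR and 0 with mimic. Ms4a6d, a myeloid member, rose by 1.52 ± 0.35 for the incision (0.018) and by 1.35 ± 0.35 with antimiR (0.039).

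**Figure D3:**
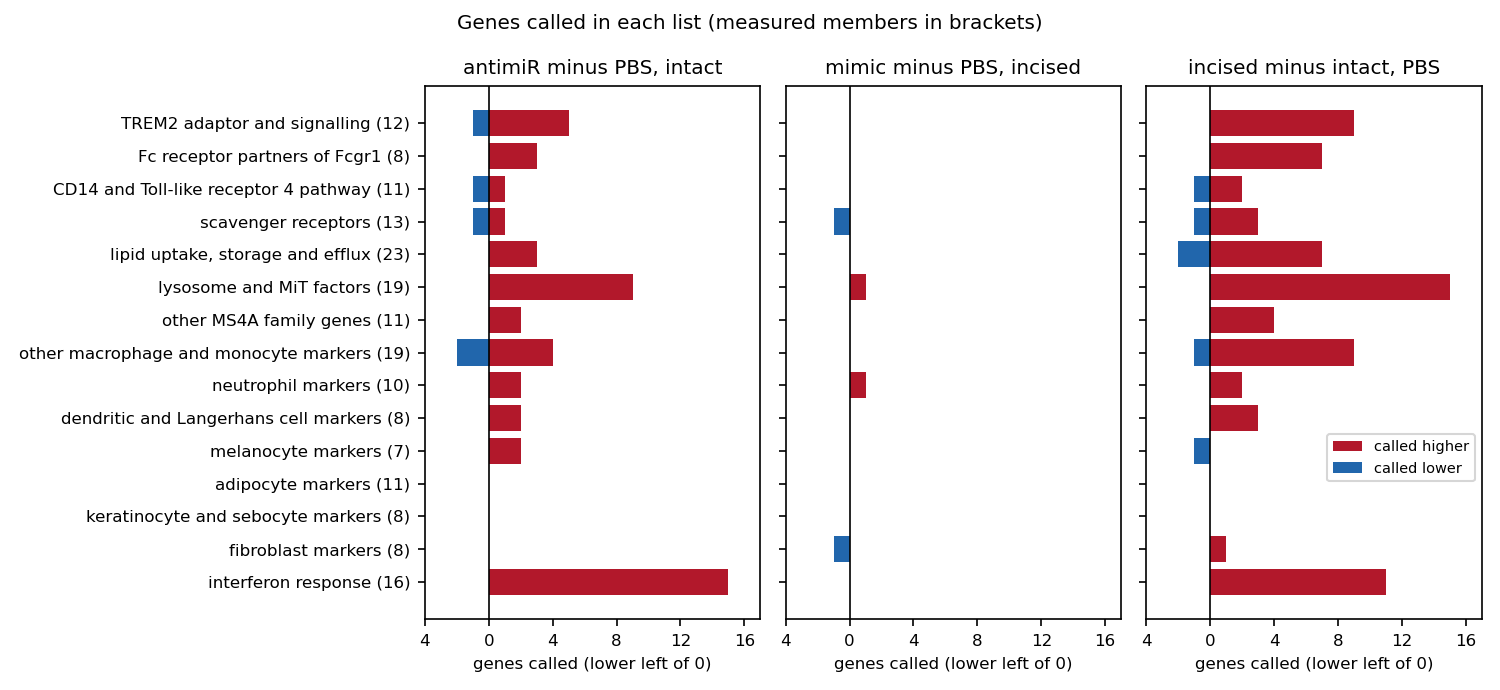
Number of genes called higher (right of 0) and lower (left of 0) in 15 lists, with the measured members in brackets, for antimiR, mimic and the incision. Lysosomal genes reach 9, 1 and 15 higher, and interferon response genes 15, 0 and 11.

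Other macrophage and monocyte markers are given beside the 10 genes. Of 19 measured, 4 rose and 2 fell with antimiR, with a median of -0.23, 0 passed with mimic, with a median of -0.05, and 9 rose and 1 fell for the incision, with a median of 0.57. With antimiR the signal-regulatory receptor gene Sirpa rose by 1.22 ± 0.11 (adjusted p = 0.00019), the pore-forming Mpeg1 by 1.65 ± 0.18 (0.00046) and the monocyte chemokine receptor gene Ccr2 by 1.47 ± 0.33 (0.020). The 2 that fell, named after their values were seen, are known from resident macrophages, Lyve1 also from lymphatic vessels: Lyve1 at -1.74 ± 0.44 (0.032) and Timd4 at -1.14 ± 0.31 (0.041). Both lost the call with slide as a fixed or a random block. The score of this list ran from -0.70 to 0.06 on antimiR arrays and from -0.31 to -0.04 on intact PBS arrays, so these overlapped. The score of the 10 genes ran from -0.29 to 0.16 and from -1.46 to -0.66 on the same arrays. On mimic and incised PBS arrays the scores were 0.30 to 0.40 and 0.29 to 0.43 for the marker list, and 0.63 to 0.79 and 0.12 to 0.39 for the 10 genes. Several of the 10 were picked for rising in these arrays, so a gap between groups in their score is built in. Nothing is read from how the scores differ.

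Interferon response genes moved beside the 10 with antimiR. Of 16, 15 rose with antimiR, with a median of 1.97, 0 passed with mimic, with a median of 0.35, and 11 rose for the incision, with a median of 1.21. Xaf1, an interferon-induced gene, rose by 1.93 ± 0.21 with antimiR (adjusted p = 0.00052) and Stat2, a subunit of the interferon-activated factor, by 1.79 ± 0.21 (0.00061). Their list score ran from 0.17 to 1.24 on antimiR arrays and from -1.27 to -0.95 on intact PBS arrays. Fcgr1 is itself known as an interferon-induced gene. On antimiR arrays 1, 2 and 3 the interferon score was 0.17, 1.24 and 0.71, and the score of the 10 genes was 0.16, -0.01 and -0.29. On the same arrays the log2 ratios of Fcgr1 were 3.16, 4.13 and 3.75. The score of the other macrophage markers was 0.06, -0.58 and -0.70 there, and that of fibroblast markers 0.72, -0.11 and 0.06. The interferon part in the member values was not tested.

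**Figure D4:**
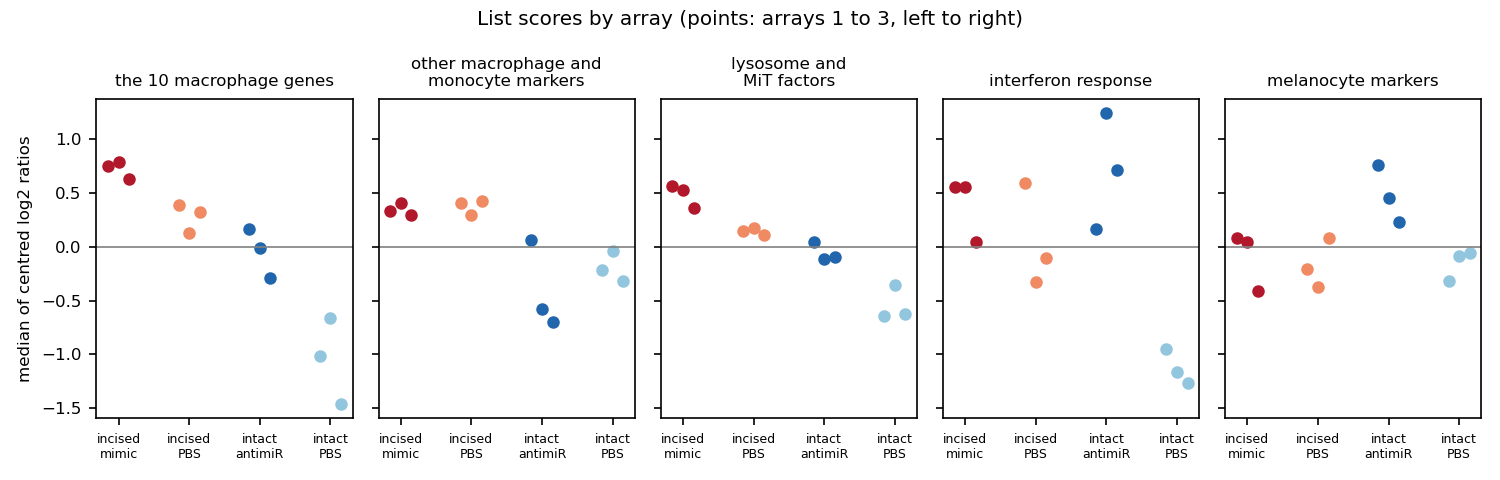
List score per array, the median of centred log2 ratios (vertical axis), for the 10 genes and 4 lists in the 4 groups of 3 arrays. On antimiR arrays the 10 genes and the interferon genes lie above intact PBS arrays without overlap, and the other macrophage markers overlap. Several of the 10 were picked for such rises.

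Markers of other cells were also read beside the 10 genes. Of 10 neutrophil markers 2 rose with antimiR, 1 with mimic and 2 for the incision. The one with mimic was Mmp8, a neutrophil collagenase, at 2.15 ± 0.38 (adjusted p = 0.037), and the score ran from 0.22 to 0.69 on mimic arrays and from -0.06 to 0.15 on incised PBS arrays. Of 8 dendritic and Langerhans cell markers 2 rose with antimiR, 0 with mimic and 3 for the incision. Over all genes 5.24%, 0.205% and 9.86% were called higher in the same order. None of 11 adipocyte or 8 keratinocyte and sebocyte markers was called by limma in any of the 3. The adipocyte score had an SD of 0.82 on incised PBS arrays and 0.79 on mimic arrays (n = 3 each). The SD was 0.53 on intact PBS arrays and 0.12 on antimiR arrays. Adipocyte medians were -0.41 with mimic, -0.45 with antimiR and -0.15 for the incision, with 0, 2 and 5 of the 11 positive. An unchanged fat content is therefore not read from the absence of calls. Of 8 fibroblast markers, 1 fell with mimic and 1 rose for the incision, and the score ran from -0.54 to -0.31 on mimic arrays and from 0.12 to 0.36 on incised PBS arrays. With antimiR 0 fibroblast markers passed, and their median was 0.40, or 1.44 with slide as a fixed block. That fit sets the antimiR arrays against intact PBS array 3 alone. The fibroblast score of that array was -1.25, against 0.04 and 0.28 on intact PBS arrays 1 and 2, so no rise is read from it. The part of these cells in the member values was not tested.

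The genes whose profile over the 12 arrays was most like that of a member were found by the root mean square difference of values centred on each gene's mean, among 15252 named genes. Nearest to Fcgr1 were Ifi209 at 0.20, Sirpb1a at 0.28 and Fcgr4 at 0.29. Nearest to Msr1 were Mirt1 at 0.25, Pilra at 0.32 and Lilr4b at 0.32. For Trem2 the nearest were Ctss and Tlr1 at 0.46 and Fyb at 0.47. Apoe varied little, with an SD of 0.25 over the arrays. Between members, the closest pairs were Cd14 with Lyz2 and Lyz2 with Apoe, both at 0.41, and then Cd68 with Aif1 at 0.44. A small difference here can come from little variation without a shared direction. The value for Lyz2 with Apoe exceeds the SD of Apoe, and with mimic Lyz2 was at 0.18 and Apoe at -0.31. The farthest was Trem2 with Apoe at 1.26. Each likeness is a description over arrays that share slides and reference RNA.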

How the data were processed

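Gene expression was measured with 12 dual-colour arrays, 3 in each of 4 groups, with skin RNA in Cy5 and a common reference RNA in Cy3. Per the file headers, the scanner files hold spot and background intensity from Agilent Feature Extraction 11.5.1.1 on mm9, and a log10 ratio of that program's background-subtracted and dye-normalized signals. A log2 table of the whole series, also deposited by the authors, names Cy3 first in its title. Its columns correlated with Cy5 over Cy3 at 0.89 to 0.92 with medians from -0.04 to 0, and it served as an alternative.

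Mean signals were corrected with limma 3.58.1 in R 4.3.3 by normexp with an offset of 50 and normalized by loess within arrays, with control spots at weight 0 and outlier spots left out. Spots of a probe were averaged. Probes well above background in Cy5 on at least 3 of 12 arrays were kept, without those named only by their own probe ID, 27149 of 39429. A gene was represented by its probe of highest average intensity, which was a choice for 5313 genes. Names came from RefSeq through accessions for 21654 kept probes, otherwise from the files. Of the kept probes 1292 lacked a value on some array.

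Group means were fitted over all 12 arrays with lmFit and eBayes, and limma's 2-sided p values were adjusted by Benjamini-Hochberg over all genes, with calls under 0.05. The fit was tested on simulated data. The number of arrays limits the precision. Each p value sets a difference between group means against the spread between arrays within all 4 groups.

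The members and the 15 lists were chosen with earlier results of these data known. Named genes were all members and their probes, up to 3 genes of smallest p per list, the 3 nearest genes of 4 members, and Lyz1; some that meet the rule are not named. Alternatives concerned background, dyes, scaling, filter, probe choice, arrays fitted, prior, slide, replicate number and single arrays. RefSeq promoters matched 8 of the 10 members.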

Additional observations from a re-analysis of the deposited data

How the results depend on the processing

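Over all alternatives run, none of the member medians and no called member reversed. Limma called 1987 genes with antimiR, 121 with mimic, 3154 for the incision and 223 for the difference between effects. With Cy5 alone the counts were 1200 (770 higher, 430 lower, against 1072 and 915), 45, 1738 and 76, and the member medians were 0.63 with mimic and 1.53 for the incision, against 0.34 and 0.97. With the program's processed signals the mimic count was 38, that of the difference 347 and the incision median 1.21. The mimic count was 39 with the deposited table and 71 with trend and robust priors. With scaling between arrays mimic calls were 65 higher and 71 lower, against 42 and 79. With only the compared groups in the fit the counts were 537, 438 and 1365, and the calls were Trem2, Cd68 and Fcgr1 with antimiR and Cd68, Msr1 and Fcgr1 with mimic. That fit was not run for the difference.

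With slide as a fixed block the counts were 0 with mimic (1481 at an unadjusted p under 0.05), 11 for the incision and 17 for the difference; with slide as a random block, 59 with mimic and 125 for the difference. Within slide 3 the antimiR count was 1044, and within slide 1 the mimic count was 0; in each, 1 arm was a single array, so the spread came from the other arm alone. The other comparisons have no such slide. So with slide as a fixed block the mimic calls of Scara5, Tfec, Mmp8 and Dpt ended too, as did the antimiR calls of Mlana, Lrp1 and Nceh1. Msr1 lost its mimic call with processed signals, Cy5 alone, the deposited table and slide as a fixed or random block, with values of 1.47, 1.70, 1.31, 1.45 and 1.37 in that order, against 1.39. Gpnmb lost its antimiR call with slide as a fixed block at 0.90, against 1.41. Cd68 lost its calls with Cy5 alone, where its values were higher, and its incision call with only the compared groups (adjusted p = 0.052). The cause was not tested.

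Leaving out 1 array gave 1090 to 2096 calls with antimiR (lowest without antimiR array 2), 1 to 54 with mimic (lowest without incised PBS array 1), 1693 to 2964 for the incision and 64 to 418 for the difference. Member medians ran from 1.00 to 1.44, 0.22 to 0.39 and 0.80 to 1.15. With antimiR, Trem2, Cd68 and Fcgr1 kept their calls in all 6 fits, while Gpnmb, Ms4a7 and Aif1 lost theirs in at least 1; for the incision Msr1 lost its call without incised PBS array 1 or 2.

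Replicate numbers did not pair the samples: correlations of same-numbered residuals were 0.13, -0.12 and 0.06 with antimiR, and 0.30, -0.34 and -0.38 with mimic. With a replicate block the counts were 1619 with antimiR, 77 with mimic, 2801 for the incision and 170 for the difference, and the member calls did not change.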
